A study of Mus musculus with 12 samples.

Results

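The genes described here are 33 genes of the actin cytoskeleton and of contraction, measured in 2 bipotential mouse embryonic liver (BMEL) lines as the cells left the dish and formed floating aggregates. They were picked by name, and each stands for itself through 1 probe set, the one with the highest mean over the 12 arrays among those annotated to it. All 33 were on the array table, out of 18193 genes in all, and 32 passed the filter on low values (log2 of at least 5 on at least 2 arrays). Myl9 was the gene that did not pass. The list also holds 2 intermediate filament genes, Vim and Lmna, which encode no actin-binding protein of the contractile fibre.

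BMEL cells are immortal liver epithelial cells of fetal origin, with the capacity to become hepatocytes or bile duct cells. The 2 lines, 9A1 and 14B3, were isolated independently from livers of day 14 embryos of a cross of CBA/J with C57Bl/6J mice. Neither line carried a transgene or received a drug as far as the labels say. Each line was grown adherent (basal culture), as aggregates for 1 day and as aggregates for 5 days. For every line and culture there were 2 biological replicates, 12 arrays in 6 groups, and the labels do not tie a replicate number to a shared day or passage. What the basal and aggregate media contained is not given in the sources used here, so a change of medium and the loss of the substrate cannot be told apart.

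Adherent cells build bundles of actin filaments, the stress fibres, that are crosslinked by actinins and filamins, wrapped by tropomyosins, pulled by non-muscle myosin II and anchored at focal adhesions through talin, vinculin and zyxin. Many of these genes are known targets of serum response factor (SRF), which binds a DNA element called the CArG box and whose cofactors MRTF-A and MRTF-B are held in the cytoplasm by free actin monomers and enter the nucleus when actin polymerises. Epithelial cells also keep a second actin system at the apical surface, where villin, plastin and unconventional myosins build microvilli, and in the liver this system lines the bile canaliculus.

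Of the members, 31 had a promoter in the RefSeq tables (build GRCm38.p6), with 40 promoters among them. A CArG box lay within the 250 bases before the start in 7 promoters of 6 members, Actg1, Cnn2, Fhl2, Lima1, Myl9 and Vcl. Among all 32851 promoters listed by RefSeq, 1.47% held one (482 promoters). A box found on either strand also matches on the opposite strand, though its letters there may differ, and no other motif was searched. The windows below show the boxes in capitals with their flanks, cut at the ends of the 250 bases searched, because the members that carry them took different courses in the arrays. A match is a description of the letters, and no match says nothing about SRF at that gene.
Actg1, chr11:120348551-120348610, minus strand: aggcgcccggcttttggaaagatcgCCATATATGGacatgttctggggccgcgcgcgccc
Cnn2, chr10:79988519-79988578, plus strand: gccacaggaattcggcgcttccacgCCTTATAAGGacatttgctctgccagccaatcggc
Fhl2, chr1:43163962-43164017, minus strand: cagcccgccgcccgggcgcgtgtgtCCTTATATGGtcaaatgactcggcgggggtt
Fhl2, second start, chr1:43196823-43196882, minus strand: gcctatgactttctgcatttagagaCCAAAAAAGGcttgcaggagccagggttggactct
Lima1, chr15:99820162-99820221, minus strand: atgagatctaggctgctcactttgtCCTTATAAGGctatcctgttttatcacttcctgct
Myl9, chr2:156775278-156775337, plus strand: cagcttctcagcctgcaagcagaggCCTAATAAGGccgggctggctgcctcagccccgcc
Vcl, chr14:20929148-20929205, plus strand: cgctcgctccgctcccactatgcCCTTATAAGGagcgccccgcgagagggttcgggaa
Among these 6, Actg1 and Cnn2 fell between day 1 and day 5, Fhl2 rose at day 1 and then fell, and Lima1 and Vcl passed no test with all arrays. Myl9 stayed near the floor of the array.

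Levels are log2 values of 1 probe set on a scale that ran between 3.15 and 14.7 over the whole table, and a difference of 1 is a doubling. A probe set's brightness depends on its own probes, so levels are compared between arrays and never between genes. Changes are differences of group means with the standard error (SE) of limma, over 4 arrays per culture when both lines are averaged. A gene is called when its Benjamini-Hochberg adjusted p over the 15781 genes tested is under 0.05. The authors normalised the values with RMA, and differences near the top of the scale may be flattened.

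The array of basal 9A1 replicate 1 stood apart from the other basal arrays. Its closest array by correlation was day 5 14B3 replicate 1 (r = 0.976), and it gave 13.1 for the albumin gene Alb and 12.6 for Epcam, against highest values of 6.86 and 7.48 on the other basal arrays. Averaged over the members, its level lay 0.01 below the mean of all arrays, where the other 3 basal arrays lay 0.47 to 0.63 above it, the day 1 arrays 0.02 to 0.40 above it and the day 5 arrays 0.46 to 0.82 below it. By this average it went against its label of basal culture, but single members varied. It read 11.46 for Cnn3, 9.77 for Gsn and 8.23 for Mylk, clear of the day 5 arrays. Those read 7.21 to 9.25, 5.85 to 7.03 and 9.10 to 10.32. For Flna, Lmna, Cald1 and Tnnt2 this array lay well below the other basal arrays. Whether its label or its culture was mixed up was not tested. It was kept under its label, and results are given with and without it where it matters. Day 1 9A1 replicate 2 also stood apart. The day 1 9A1 pair correlated at r = 0.949 and the basal 9A1 pair at 0.952, against 0.988 to 0.996 in the other groups. The values of day 1 9A1 replicate 2 had an SD of 2.13, where the other arrays had 2.25 to 2.33. It gave 7.39 for Alb, against 9.58 to 9.99 on the other day 1 arrays. It too was kept under its label. Of the 9 liver epithelial markers, Krt8 read 14.0 to 14.2 and Hnf4a 11.0 to 12.7 over all arrays. Alb, Epcam and Ttr were low on the 3 basal arrays other than basal 9A1 replicate 1 (Ttr at 6.14 to 7.86) and were called higher at day 5 against basal culture. In limma's test Ttr had already risen by 4.67 at day 1 (adjusted p = 0.0325) and Hnf4a by 0.82 (adjusted p = 0.0149). Alb and Epcam were not called at day 1. Cdh1 and Hnf4a were also called higher at day 5 against basal culture. Krt18 was called lower, by 1.08 (adjusted p = 0.000289), and Krt8, Krt19 and Afp were not called. The defining smooth muscle myosin gene Myh11 stayed at 4.51 to 5.00, the 9 fibroblast and stellate cell markers averaged 5.18 to 5.73 on each array, and the 11 cardiac and skeletal muscle markers 5.62 to 5.95. Of the 6 and 9 of these that were tested, 0 were called in any of the 3 comparisons of cultures. Of the 5 smooth muscle markers tested 1 fell, Smtn, which encodes an actin-binding protein, by 0.91 at day 1 (adjusted p = 0.0399) and by 1.43 at day 5 (adjusted p = 0.00203). Of the 2 blood markers tested 1 fell, the macrophage marker Cd68, by 1.19 at day 5 (adjusted p = 0.011), while Ptprc stayed at 4.48 to 4.73. The liver epithelial list rose over the course in which members fell. Its array means were 10.4 to 13.0 in basal culture, 12.0 to 12.3 at day 1 and 12.8 to 13.4 at day 5. Whether list and members shared their timing was not tested. In basal culture the highest mean, 13.0, was that of basal 9A1 replicate 1. The part of these markers in the results was not tested.

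At day 5 against basal culture 19 of the 32 tested members had fallen and 3 had risen, where 18.5% of all genes fell and 16.9% rose (35.4% called in all). The median change of the members was -0.76, against 0.01 for all genes. At day 1 only 2 members had fallen, Tnnt2 and Tpm1, and 1 had risen, Fhl2. That is no more than the background, since 8.8% of all genes fell at day 1 and 5.25% rose (14% in all). In limma's test 12 members had an unadjusted p under 0.05. The share of all genes with such a p is not given, so this count cannot be set against a background. Between day 1 and day 5, 16 members fell and 2 rose, where 10% of all genes fell and 11.7% rose (21.7% in all). These 3 comparisons share arrays in pairs and are given side by side for that reason. In bulk cultures, fewer cells expressing a gene and less of its RNA per cell cannot be told apart.

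Sorted by the step in which they passed the test, 2 members fell at once (Tnnt2 and Tpm1), 15 fell late, and 2 fell only over the whole course (Tpm3 and Tpm4). The late group held Actg1, Actn1, Cald1, Cnn2, Cnn3, Csrp1, Flna, Flnc, Gsn, Lmna, Myh9, Myh10, Pdlim7, Tpm2 and Vim. Fhl2 rose and then fell, Actn4 and Mylk rose late, Vasp rose only over the whole course, and 9 members were never called. Without basal 9A1 replicate 1 the first step held more: 7 members fell at day 1 and 2 rose, where 12.4% of all genes fell and 10.3% rose, and 22 fell over the whole course, where 20.8% of all genes did. Then Cnn2, Lmna, Myh10 and Tpm4 fell in both steps, Tpm3 joined Tnnt2 and Tpm1 among those that fell at once, and Lima1 rose at once. Without any one of the 6 14B3 arrays, on the other hand, 0 members passed as fallen at day 1.

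**Figure D1:**
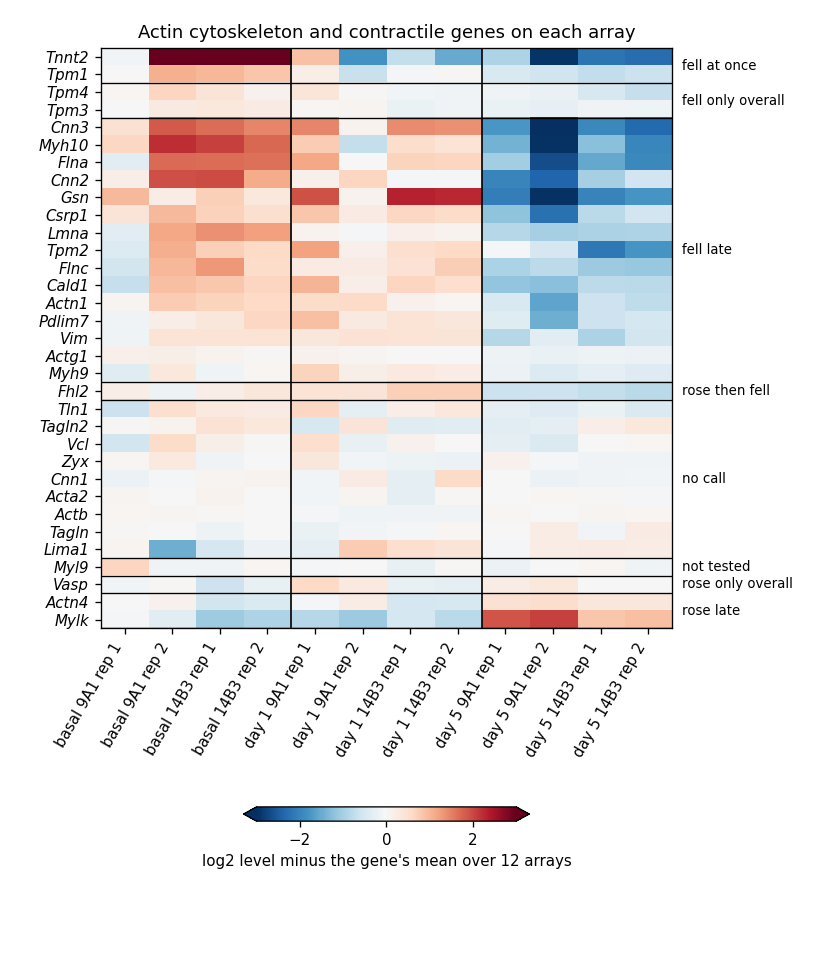
Level of each of the 33 genes on each of the 12 arrays (columns, in the order basal, day 1, day 5) as log2 difference from the gene's own mean, in red above it and blue below it (colours stop at 3 in either direction), grouped by the step in which the gene passed the test. The fall of most genes sits in the 4 day 5 columns, and basal 9A1 replicate 1, the first column, is paler than the other basal columns.

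The timing itself was tested by the difference between the steps, the first (day 1 minus basal) minus the second (day 5 minus day 1). It was called positive, with the larger fall in the second step, for 5 members: Cnn3, Csrp1, Fhl2, Gsn and Vim. It was called negative for Actn4 and Mylk, whose rise came in the second step. Over all genes 4.13% were called positive and 5.84% negative. For the remaining 11 members that fell late the difference missed the threshold, so their place in the late group rests on which step passed its threshold. Tnnt2 (-2.36 ± 1.59, adjusted p = 0.432) and Tpm1 (-0.35 ± 0.42, adjusted p = 0.681) did not pass it either. The counts that follow, with 1 array left out, have no share of all genes beside them. The number of positive members ranged between 2 and 12 with any 1 array left out, being 9 without basal 9A1 replicate 1 and 12 without basal 9A1 replicate 2.

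**Figure D2:**
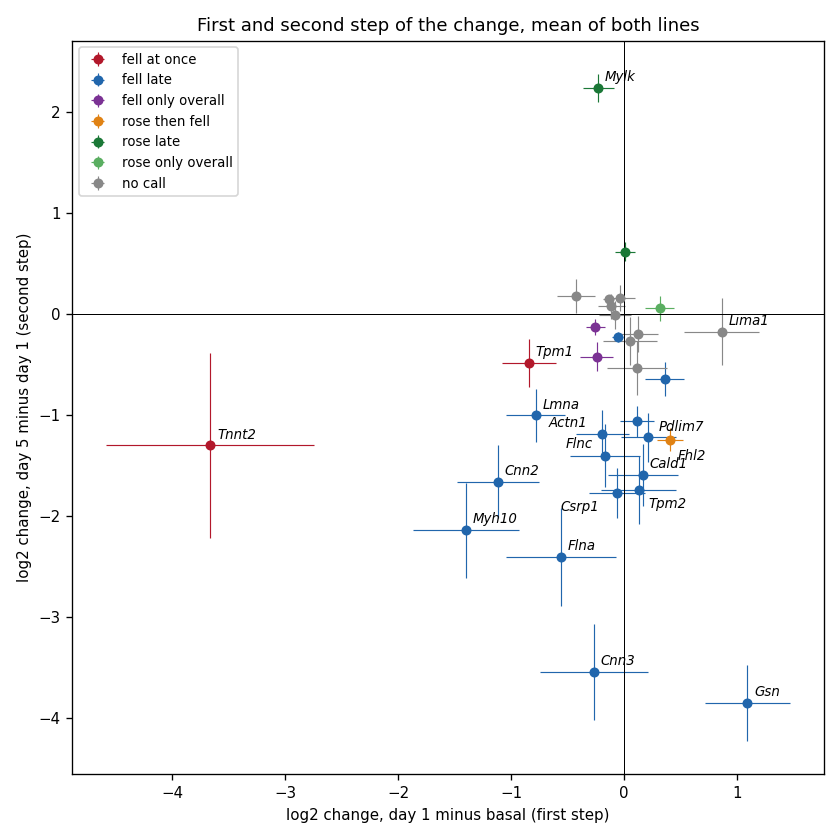
Log2 change between basal and day 1 (horizontal) and between day 1 and day 5 (vertical) for the 32 tested genes, each averaged over both lines, with bars of 1 SE and colours for the step in which the gene passed the test. Most genes lie below 0 on the vertical axis and near 0 on the horizontal one, Tnnt2 lies far to the left, and Mylk lies at the top.

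Of the 3 actin genes, which encode the subunit of the filament, 1 fell and 2 were not called at day 5. Actb, the cytoplasmic beta-actin gene often used as a loading control, read 14.42 and 14.43 on the basal 9A1 arrays and 14.39 and 14.35 on the basal 14B3 arrays, 14.32, 14.22, 14.26 and 14.25 at day 1, and 14.41, 14.37, 14.43 and 14.41 at day 5. All 4 day 1 arrays lay below all basal arrays and all day 5 arrays, by 0.14 each way on average, but neither step passed the test (adjusted p = 0.0955 and 0.0639). Another probe set of Actb, with a mean of 8.09, went the other way, by 0.51 at day 1 and 0.31 at day 5 against basal. With the mean of probe sets Actb changed by 0.19 at day 1 (adjusted p = 0.233) and 0.16 at day 5 (adjusted p = 0.232). The probe set used lies close to the top of the scale. After quantile normalisation of the deposited values Actb was called lower at both times (-0.17 at day 1 and -0.22 at day 5 against basal). In the other direction, Actb was called higher at day 5 than at day 1 with a floor of 6 (adjusted p = 0.0439), with median centring (0.16, adjusted p = 0.0407) and without any one of 3 arrays, basal 9A1 replicate 1 among them. Actg1, the gamma-actin gene, fell by 0.29 ± 0.05 over the course (1.22-fold, adjusted p = 0.00278). It read 13.87 to 14.00 on the basal arrays, 13.83 to 13.97 at day 1 and 13.63 to 13.69 at day 5, so that all day 5 arrays lay below all others. Acta2, smooth muscle alpha-actin and a classical sign of myofibroblasts, read between 6.56 and 6.93 on the 12 arrays, with a change of -0.04 at day 5 (95% interval -0.31 to 0.24).

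The crosslinkers of actin filaments went different ways. Actn1, the alpha-actinin of stress fibres and focal adhesions, fell by 1.38 ± 0.23 at day 5 (2.60-fold, adjusted p = 0.00182). It gave 11.83 and 12.51 in basal 9A1 and 12.42 and 12.34 in basal 14B3 cultures, 12.30 and 12.33 in 9A1 and 11.89 and 11.81 in 14B3 at day 1, and 11.29 and 10.17 in 9A1 and 11.14 and 10.99 in 14B3 at day 5. Day 5 lay below every earlier array, while day 1 and basal overlapped. Actn4, the paralogous alpha-actinin found at cell junctions and the cortex as well, rose by 0.62 ± 0.09 (1.54-fold, adjusted p = 0.00093). Its arrays read 11.86, 11.98, 11.29 and 11.43 in basal culture, 11.80, 12.06, 11.36 and 11.37 at day 1, and 12.30, 12.37, 12.19 and 12.20 at day 5, each time 9A1 before 14B3. Its day 1 change was 0.01 (95% interval -0.20 to 0.22), and all of the rise came later, with the steps differing by -0.61 ± 0.16 (adjusted p = 0.0451).

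Filamin A (Flna), which joins filaments into a network and ties them to integrins, fell by 2.97 ± 0.49 at day 5, or 7.81-fold (adjusted p = 0.00155). Basal 9A1 replicate 1 read 9.76 where the other basal arrays read 11.75 to 11.78. The day 1 arrays read 11.26, 10.07, 10.75 and 10.72, below those 3 in each case, and the day 5 arrays 9.05, 7.43, 8.54 and 8.16. The first step was -0.56 ± 0.49 with all arrays and -1.07 without basal 9A1 replicate 1 (adjusted p = 0.0976), so it was not called either way. Filamin C (Flnc), better known in muscle, fell by 1.57 ± 0.31 at day 5 (adjusted p = 0.004), with 7.99 to 9.85 on the basal arrays, 8.78 to 9.28 at day 1 and 7.40 to 7.77 at day 5. Its fall between day 1 and day 5 missed the threshold without day 1 14B3 replicate 2 (adjusted p = 0.0548).

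Gelsolin (Gsn), which severs and caps filaments in response to calcium, had the largest difference between the steps of all members. It read 9.77 and 9.04 in basal 9A1 and 9.51 and 9.12 in basal 14B3 cultures. At day 1 it read 10.70 and 8.92 in 9A1 and 11.11 and 11.08 in 14B3, and at day 5 6.72 and 5.85 in 9A1 and 6.81 and 7.03 in 14B3. Day 1 stood above basal culture on 3 of 4 arrays, the exception being day 1 9A1 replicate 2, and day 5 lay below every other array. The fall between day 1 and day 5 was 3.85 ± 0.38, or 14.4-fold (adjusted p = 0.000392), and the steps differed by 4.94 ± 0.65 (adjusted p = 0.00343). The rise at day 1, 1.09 ± 0.38, was not called with all arrays (adjusted p = 0.091). It was called without day 1 9A1 replicate 2, at 1.54, and with the mean of its probe sets, at 0.98 (adjusted p = 0.0288).

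Calponins, transgelins and caldesmon bind along the filament and restrain myosin. The calponin paralogues split. Cnn3, the form of non-muscle cells, changed by -0.27 at day 1, which was not called, and by -0.61 without basal 9A1 replicate 1. It then fell by 3.55 ± 0.48, or 11.7-fold (adjusted p = 0.00139). It read 11.46, 12.83, 12.69 and 12.47 in basal culture, 12.46, 11.12, 12.43 and 12.38 at day 1, and 9.25, 7.21, 9.07 and 8.67 at day 5. Every day 1 array lay below the basal arrays other than basal 9A1 replicate 1, on most of them by little. The low values among the early arrays are those of basal 9A1 replicate 1 and day 1 9A1 replicate 2. Over the whole course its fall was 14.0-fold, and the steps differed by 3.28 ± 0.83 (adjusted p = 0.039).

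Cnn2 fell by 2.78 ± 0.36 over the course, or 6.87-fold (adjusted p = 0.000519), in steps of -1.12 ± 0.36 (adjusted p = 0.0739) and -1.66 ± 0.36 (adjusted p = 0.0117). It gave 9.68, 11.44, 11.44 and 10.60 in basal culture, 9.64, 10.15, 9.46 and 9.44 at day 1, and 7.51, 7.12, 8.49 and 8.92 at day 5. Apart from basal 9A1 replicate 1, every basal array lay above every day 1 array. Without that array the first step was -1.56 and was called (adjusted p = 0.00219). The second step lost its call without day 5 9A1 replicate 2 or day 5 14B3 replicate 1, with an adjusted p of at most 0.0511. Cnn1, the smooth muscle calponin, stayed near the floor at 4.72 to 5.59, with a day 5 change of -0.08 (95% interval -0.48 to 0.32).

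Caldesmon (Cald1) fell late, by 1.42 ± 0.31 at day 5 against basal culture (2.68-fold, adjusted p = 0.00612). Basal 9A1 replicate 1 read 11.00 and its 3 fellow basal arrays 12.33 to 12.58, and Cald1 read 11.87 to 12.70 at day 1, and 10.43 to 10.90 at day 5. Tagln, the smooth muscle transgelin, read 6.18 to 6.63 on all 12 arrays, with a day 5 change of 0.12 (95% interval -0.16 to 0.41). Its paralogue Tagln2 read 11.81, 11.89, 12.21 and 12.08 in basal culture, 11.28, 12.16, 11.40 and 11.44 at day 1, and 11.46, 11.47, 11.98 and 12.08 at day 5. It was low at day 1 on all arrays but day 1 9A1 replicate 2. The day 1 change of Tagln2 was -0.43 ± 0.17 (adjusted p = 0.134) and was called only when that array was left out, at -0.65.

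**Figure D3:**
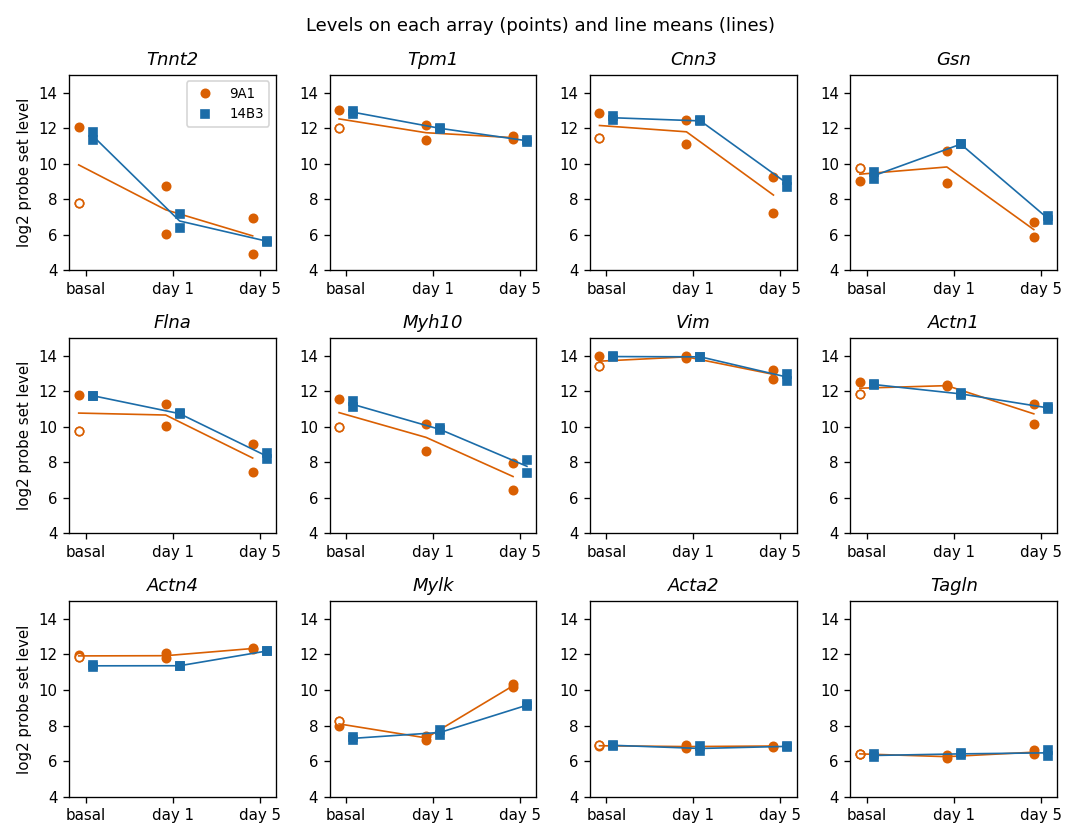
Log2 level of 12 of the genes on each array in basal culture, at day 1 and at day 5, with circles for 9A1, squares for 14B3, lines through each line's means, and an open circle for basal 9A1 replicate 1. Tnnt2 and Tpm1 are lower at day 1 than on every basal array but the open circle, which lies within their day 1 range. Cnn3 drops mainly after day 1, Gsn and Vim drop after it, Mylk and Actn4 rise after it, and Acta2 and Tagln stay level.

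Tropomyosins wrap the filament and decide which myosins and severing proteins reach it. Tpm1 was the tropomyosin that passed the test at day 1. It read 11.99 and 13.04 in basal 9A1 and 12.98 and 12.81 in basal 14B3 cultures, 12.17 and 11.30 in 9A1 and 11.96 and 12.02 in 14B3 at day 1, and 11.53, 11.39, 11.24 and 11.33 at day 5. Every day 1 array lay below the 3 basal arrays other than basal 9A1 replicate 1. The day 1 change was -0.84 ± 0.24 (1.79-fold, adjusted p = 0.0482), close to the threshold. It was called without basal 9A1 replicate 1 (-1.11, adjusted p = 0.00318) and without day 1 9A1 replicate 1, and it missed the threshold without any other array, at an adjusted p of up to 0.162. Its day 5 fall, 1.33 ± 0.24 (adjusted p = 0.00253), was called with any 1 array left out. Other probe sets of Tpm1 moved less, and with the mean of its probe sets the changes were -0.49 at day 1 and -0.58 at day 5, neither of them called.

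Tpm2 kept its level at day 1 (0.13 ± 0.33) and fell by 1.74 ± 0.33 after it (3.34-fold, adjusted p = 0.00664). It read 9.72, 11.20, 10.83 and 10.71 in basal culture, 11.34, 10.28, 10.63 and 10.73 at day 1, and 10.08, 9.61, 7.97 and 8.35 at day 5. The 14B3 arrays were the lower ones at day 5. Its day 5 change was -0.62 ± 0.47 in 9A1 (adjusted p = 0.468) and -2.61 ± 0.47 in 14B3 (adjusted p = 0.00478), a difference of 1.99 ± 0.67 between the lines that did not pass its own test (adjusted p = 1). Tpm3 and Tpm4, the tropomyosins found in most non-muscle cells, had smaller changes by the probe sets used. Tpm3 fell by 0.38 ± 0.08 (1.30-fold, adjusted p = 0.00582), with 12.62 to 12.93 in basal culture, 12.41 to 12.69 at day 1 and 12.37 to 12.50 at day 5. Tpm4 fell by 0.67 ± 0.14 (1.59-fold, adjusted p = 0.00583), with 12.23 to 12.80, 12.06 to 12.53 and 11.46 to 12.06 in the same order. Other probe sets of Tpm3 changed by between -2.15 and 0.05 at day 5, and with the mean of its probe sets Tpm3 was called lower at day 1 (-0.64, adjusted p = 0.024) and at day 5 (-0.70, adjusted p = 0.00631).

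Tnnt2, cardiac troponin T, is a part of the calcium switch of heart muscle, and it had the largest fall of the members tested. Its basal arrays read 7.79 on 9A1 replicate 1, 12.06 on 9A1 replicate 2, and 11.79 and 11.35 in 14B3. At day 1 it read 8.74 and 6.06 in 9A1 and 7.16 and 6.37 in 14B3, and at day 5 6.94 and 4.92 in 9A1 and 5.67 and 5.60 in 14B3. Basal 9A1 replicate 1 reached into the day 1 range, and the other 3 basal arrays lay above it by a wide margin. The fall was 3.66 ± 0.92 at day 1 (12.7-fold, adjusted p = 0.03) and 4.97 ± 0.92 at day 5 (31.3-fold, adjusted p = 0.00284). The day 1 value was -4.73 without basal 9A1 replicate 1 and -2.60 without basal 9A1 replicate 2. It missed the threshold without any one of 7 arrays, namely the 6 14B3 arrays and day 1 9A1 replicate 2, with an adjusted p of up to 0.114. The genes of its cardiac partners read 4.89 to 5.61 (Tnni3) and 5.57 to 6.95 (Tnnc1) over the 12 arrays, and neither was called at day 1 or day 5.

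Non-muscle myosin II pulls the filaments, and of its heavy chains in the list Myh10 fell at day 5, and Myh9 was called lower then only without basal 9A1 replicate 1. Myh10, the heavy chain of myosin IIB, fell by 3.54 ± 0.47 at day 5, or 11.6-fold (adjusted p = 0.000567). It read 10.01, 11.58, 11.43 and 11.10 in basal culture, 10.14, 8.66, 9.91 and 9.80 at day 1, and 7.97, 6.43, 8.12 and 7.42 at day 5. The day 1 arrays lay between the other cultures, overlapping basal culture through basal 9A1 replicate 1 alone. The steps were -1.40 ± 0.47 (adjusted p = 0.0841) and -2.14 ± 0.47 (adjusted p = 0.0121). Without basal 9A1 replicate 1 the first step was -1.80 and was called (adjusted p = 0.0199). The second missed the threshold without day 5 14B3 replicate 2 (adjusted p = 0.0522).

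Myh9, the heavy chain of myosin IIA, read 11.13, 11.82, 11.37 and 11.56 in basal culture, 12.15, 11.66, 11.78 and 11.73 at day 1, and 11.32, 11.09, 11.22 and 11.10 at day 5. It was higher at day 1 than at day 5 on all arrays, by 0.65 ± 0.17 (1.56-fold, adjusted p = 0.026). Against basal culture it changed by -0.28 at day 5 (95% interval -0.67 to 0.10), and by -0.46 without basal 9A1 replicate 1 (adjusted p = 0.0264). The second step lost its call without any one of 6 arrays (adjusted p of up to 0.0988). In the same cultures Myh14, the heavy chain of myosin IIC and no member of the list, rose by 3.18 ± 0.63 (adjusted p = 0.00398), with group means of 7.64, 7.48 and 10.82 in basal culture, at day 1 and at day 5. Whether these 3 changes differ from one another was not tested.

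Mylk, the kinase that switches myosin on by phosphorylating its light chain, rose late, as Actn4 did. It read 8.23 and 7.95 in basal 9A1 and 7.21 and 7.34 in basal 14B3 cultures, 7.41, 7.19, 7.75 and 7.47 at day 1, and 10.15 and 10.32 in 9A1 and 9.10 and 9.19 in 14B3 at day 5. All 4 day 5 arrays lay above all earlier ones, and the rise of 2.01 ± 0.14 was 4.02-fold (adjusted p = 3.32e-05). The day 1 change was -0.23 (95% interval -0.54 to 0.08), so the rise lay in the second step, which differed from the first by 2.46 ± 0.24 (coded -2.46, first minus second, adjusted p = 0.00126). Myl9, a regulatory light chain of smooth muscle and non-muscle myosin, read 4.60 to 4.89 on 11 arrays and 5.47 on basal 9A1 replicate 1, too low to be tested.

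Both intermediate filament genes of the list fell. Vimentin (Vim), typical of mesenchymal and cultured cells, kept 13.43 to 13.96 in basal culture and 13.90 to 13.98 at day 1, and read 12.70, 13.21, 12.60 and 12.99 at day 5. All 4 day 5 arrays lay below all others, and the fall between day 1 and day 5 was 1.07 ± 0.15 (2.09-fold, adjusted p = 0.00171) near the top of the scale. The steps differed by 1.18 ± 0.26 (adjusted p = 0.0239). Lamin A/C (Lmna), which stiffens the nucleus, fell by 1.79 ± 0.26 (3.45-fold, adjusted p = 0.000873). It read 10.90 on basal 9A1 replicate 1, 12.37 to 12.59 on the 3 basal arrays that remain, 11.16 to 11.36 at day 1 and 10.23 to 10.37 at day 5. Without that array Lmna fell in both steps, with changes of -1.15 (adjusted p = 0.000103) and -1.01 (adjusted p = 7.03e-05). With all arrays the first step missed the threshold (-0.78, adjusted p = 0.0824) and the second passed it (adjusted p = 0.024). The second missed it, at an adjusted p of up to 0.0827, without either day 1 14B3 array or any one of the 4 day 5 arrays. Other probe sets of Lmna moved less at day 1, by -0.29 to -0.03 with all arrays. With the mean of its probe sets the first step was -0.27 and was not called (adjusted p = 0.313).

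Of the 4 adhesion plaque genes Vcl, Tln1, Zyx and Vasp, 1 rose and 3 were not called at day 5. Vinculin (Vcl), which locks talin to actin, read 10.43, 11.51, 11.15 and 11.01 in basal culture, 11.47, 10.74, 11.10 and 10.99 at day 1, and 10.70, 10.52, 10.97 and 11.02 at day 5. Talin 1 (Tln1), which joins integrin tails to actin, read 8.50, 9.63, 9.43 and 9.39, then 9.76, 8.87, 9.33 and 9.46, then 8.87, 8.75, 8.95 and 8.70. The cultures overlapped for both. Their day 5 changes were -0.22 (95% interval -0.75 to 0.31) and -0.42 (95% interval -1.02 to 0.18), and without basal 9A1 replicate 1 both were called, at -0.49 for Vcl (adjusted p = 0.0476) and -0.70 for Tln1 (adjusted p = 0.0261). Zyxin (Zyx), a LIM protein that moves to strained fibres, read 8.88 to 9.40 on all arrays with a day 5 change of -0.09 (95% interval -0.40 to 0.22). Vasp, which speeds the growth of filament ends, read 10.00 to 10.65 in basal culture, 10.32 to 11.21 at day 1 and 10.61 to 10.94 at day 5. Its rise of 0.37 ± 0.13 was just called (adjusted p = 0.0479), and it was lost without any one of 9 arrays.

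Among the LIM proteins that ride on the fibres, Csrp1, Pdlim7 and Fhl2 fell after day 1 and Lima1 did not. Csrp1 read 9.48, 10.08, 9.80 and 9.58 in basal culture, 9.94, 9.35, 9.73 and 9.66 at day 1, and 7.90, 6.87, 8.30 and 8.53 at day 5, a fall of 1.77 ± 0.25 in the second step (3.42-fold, adjusted p = 0.00175) after -0.06 ± 0.25 in the first. The steps differed by 1.71 ± 0.43 (adjusted p = 0.0395). Pdlim7 read 9.99 to 10.73 in basal culture, 10.37 to 11.00 at day 1 and 8.64 to 9.74 at day 5, a fall of 1.01 ± 0.24 over the course (adjusted p = 0.0103). Another probe set of Pdlim7 did not move (-0.03), and with the mean of its probe sets the change was -0.41 (adjusted p = 0.0554).

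Fhl2, a LIM-only cofactor that shuttles between adhesions and the nucleus, was the member that passed in both directions. It read 10.54, 10.20, 10.54 and 10.70 in basal culture, 10.76, 10.73, 11.06 and 11.06 at day 1, and 9.71, 9.72, 9.64 and 9.53 at day 5. The 3 cultures did not overlap. The day 1 rise of 0.40 ± 0.11 (1.32-fold, adjusted p = 0.046) lost its call without any one of 9 arrays, at an adjusted p of up to 0.187. The fall of 1.25 ± 0.11 that followed (2.38-fold, adjusted p = 0.000297) was called with any 1 array left out, and the steps differed by 1.65 ± 0.20 (adjusted p = 0.00225). Lima1, which bundles filaments and slows their turnover, read 10.59, 9.03, 9.99 and 10.33 in basal culture, 10.24, 11.27, 11.01 and 10.88 at day 1, and 10.47, 10.73, 10.75 and 10.73 at day 5. Its day 1 change of 0.86 ± 0.33 was not called with all arrays (adjusted p = 0.127) but was called without basal 9A1 replicate 1, at 1.26 (adjusted p = 0.00511), and without day 1 9A1 replicate 1.

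Within the lines, 2 arrays against 2, no member passed at day 1 in limma's test. That test uses 1 estimate of spread for all 6 groups, so the wider spread of the 9A1 pairs enters it in 14B3 too. In 9A1 0 members were called and 5 had an unadjusted p under 0.05, where 1.88% of all genes were called. In 14B3 0 members were called and 8 had an unadjusted p under 0.05, where 8.57% of all genes were called. Still, 22 of the 32 tested members had a negative day 1 change in 14B3. They included Tnnt2 (-4.80), Cnn2 (-1.57), Myh10 (-1.41), Lmna (-1.18), Flna (-1.01) and Tpm1 (-0.91), while Gsn (1.78) and Lima1 (0.78) were among those that rose. The unadjusted counts, here and for the differences between the lines, have no share of all genes beside them and show no excess. Without basal 9A1 replicate 1 the basal value of 9A1 rests on 1 array. The median day 1 change of the members in 9A1 was then -0.21 (-0.05 with all arrays), against 0.05 for all genes. In 14B3 it was -0.11 in either fit, against -0.01 for all genes. Between day 1 and day 5, 10 members fell and 1 rose in 9A1 (9.89% of all genes called), and 5 fell and 2 rose in 14B3 (6.91% called). Cnn3, Fhl2, Gsn and Vim fell late and Mylk rose late in both lines. Actg1, Actn1, Cald1, Cnn2, Csrp1 and Pdlim7 were also called lower in 9A1, and in 14B3 Tpm2 was called lower and Actn4 higher, with the difference between the lines at this step not tested. At day 5 against basal culture, 11 fell and 1 rose in 9A1 (15.2% of all genes called), and 19 fell and 2 rose in 14B3 (26.7% called).

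The counts within a line hung on single arrays. Counts with 1 array left out, here and below in this paragraph, have no share of all genes beside them. In 9A1 the day 5 fallers numbered 4 without day 5 9A1 replicate 2 and 18 without basal 9A1 replicate 1, and in 14B3 they numbered 5 without basal 14B3 replicate 1. No difference between the lines passed its own test for any member. For the response at day 1, 0 members and 0% of all genes were called, with 1 member at an unadjusted p under 0.05. For the response at day 5, 0 members and 0.038% of all genes were called, again with 1 member at an unadjusted p under 0.05. In basal culture the lines differed in 0 members and in 0.019% of all genes, with 3 members at an unadjusted p under 0.05. Without basal 9A1 replicate 2, 3 members passed as higher in the response of 9A1 at day 5, and 3 passed as lower and 1 as higher in basal 9A1 against basal 14B3. Without day 1 9A1 replicate 1, 2 members passed as lower and 1 as higher in the response of 9A1 at day 1.

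**Figure D4:**
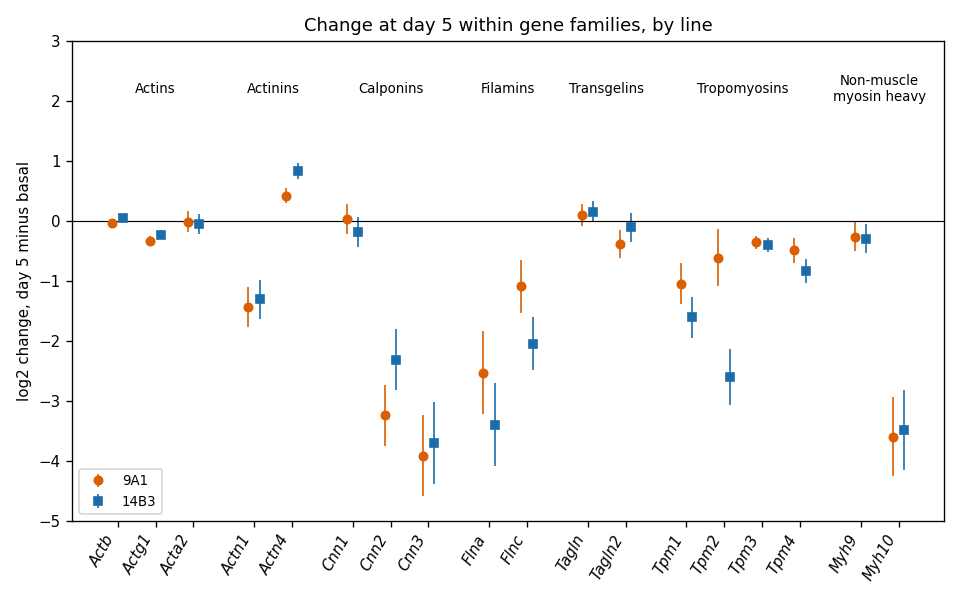
Log2 change between basal culture and day 5 in 9A1 (circles) and 14B3 (squares) for genes of 7 families, with bars of 1 SE from the fit. Actn1, Cnn2, Cnn3 and Myh10 lie well below 0, Actn4 lies above it, and Acta2, Cnn1 and Tagln lie near 0 in both lines.

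Lists of other genes of the actin system are set here beside the share of all genes called at day 5, which was 18.5% lower and 16.9% higher (35.4% in all). Srf, the gene of the factor itself, fell by 0.79 ± 0.13 at day 1 (adjusted p = 0.00453) and lay 0.87 below basal culture at day 5, while Mrtfa and Mrtfb were not called. Of 15 other targets of SRF and MRTF, 3 fell and 0 rose at day 1, where 8.8% of all genes fell, and 5 fell and 2 rose at day 5 (46.7% called). Ankrd1 fell by 3.15, Fosl1 by 2.50 and Ccn1 by 2.09 at day 5, and Ccn1 had already fallen by 2.21 at day 1. The immediate early genes Fos and Egr1 rose by 1.53 and 1.01.

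Of 21 focal adhesion adaptors 6 fell and 2 rose at day 5, and the share called, 38.1%, was near that of all genes. Nexn, an actin-binding protein of adhesions and of the Z disc, fell by 2.56, Parvb by 1.96 and Tln2, the paralogue of Tln1, by 1.64, while Src rose by 0.47 and Pxn by 0.33. Of 35 genes of filament assembly and turnover 6 fell and 3 rose, and the share called, 25.7%, was below that of all genes. Those with the largest falls encode proteins of protrusions and bundles, and Enah fell by 3.69, the fascin gene Fscn1 fell by 2.95 and Evl fell by 2.07. Dstn, Arpc5 and Ssh3 rose by 0.41 each. Of 13 other myosin genes and partners 4 fell and 5 rose (69.2% called), with Anln, the scaffold of the cleavage furrow, lower by 4.55, Myo5a by 1.86 and Myl12a by 0.46, and with Myh14 higher by 3.18, Myo6 by 1.26 and Myo18a by 0.79.

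Most genes of the apical list rose. Of 13 genes of the brush border and the apical cortex 8 rose and 4 fell at day 5 (92.3% called), with a median of 1.51, against 0.01 for all genes. Myo1a, the myosin of the microvillus core, rose by 5.40 ± 0.95 (adjusted p = 0.00227), and the intermicrovillar cadherin genes Cdhr2 and Cdhr5 rose by 3.92 and 3.44. Those that fell included Rdx by 2.23, Msn by 2.15 and Ezr by 0.69, whose proteins link membranes to actin. Of 8 other intermediate filament and lamin genes 4 fell and 1 rose (62.5% called), with Lmnb1 lower by 1.87, Krt7 by 1.72 and Krt18 by 1.08, and Krt20 higher by 1.37. No test compared these lists with the members.

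Of the 33 members 23 had more than 1 probe set, and 51 other probe sets averaged at least 5. For members called at day 5 against basal culture, 35 of 37 such probe sets changed in the same direction as the one used. The sizes differed more widely. For Tnnt2 the others gave -4.36 and -0.0063, for Gsn they gave -2.78 to -0.33, and with the mean of probe sets the day 5 change was -3.11 for Tnnt2 (adjusted p = 0.00334) and -1.68 for Gsn (adjusted p = 0.000924). By the same mean Myh10 changed by -1.93, Tpm2 by -1.05 and Lmna by -0.97 at day 5, and all 3 were called. The probe sets used for Acta2, Actg1, Cald1, Lima1 and Myh9 carry the suffix for probes shared by several transcripts, and those for Cnn3, Flnc and Gsn the suffix for probes that may bind unrelated transcripts, so part of their signal may come from other genes.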

How the data were processed

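The deposited values are log2 levels of 45101 probe sets on 12 Affymetrix mouse arrays. Per the submitters' processing notes, the authors used RMA and R 2.3.1 to make them. In RMA the background is removed and every array is forced onto a common distribution before the probes of a set are combined, so that differences in total RNA are not seen. The table gives no detection calls, and 0 of its value columns were left unmapped. A platform annotation gave 1 gene for 34945 probe sets, several for 932 and none for 9160, and 64 were controls. Only those with 1 gene were used.

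One limma model (3.58.1, R 4.3.3, statmod 1.5.0) with 6 group means and a variance trend was fitted to the 15781 genes with log2 of at least 5 on at least 2 of the 12 arrays. P-values were adjusted over all of them by Benjamini-Hochberg, with 0.05 as the threshold, and intervals are 95% intervals. Contrasts compared the cultures, averaged over the lines and within each, the difference between the steps, the response of 9A1 minus that of 14B3, and the lines in basal culture. A member fell at once or late by the step in which it was called. The fit was tested on simulated data with known changes. The alternatives tried were no filter, 6 as the floor, averaging the probe sets of a gene, quantile normalisation, median centring, array weights, no variance trend, a replicate block, and leaving out each array.

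Every one of the members is named. From 7 lists of related genes (127 of 138 genes on the table), the 3 largest called changes each way at day 5 are named, and Srf, Mrtfa, Mrtfb and the day 1 value of Ccn1 were added after their values were seen. The result of 1 of these lists is not reported here. Of 46 markers of 6 cell types 44 were on the table. The members and lists were chosen with earlier results of these data known, so no count over them is independent evidence of a direction.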

Additional observations from a re-analysis of the deposited data

Results flagged for a closer look

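In 7 of the 99 sets of 4 arrays (33 genes in 3 cultures), 1 array lay so far from the other 3 that its gap exceeded Dixon's 95% critical value. Chance alone gives such a gap in about 5% of sets, and genes on one array are not independent. Of the 7, 5 were basal 9A1 replicate 1, and in each of these it was the low array. It gave 11.0 for Cald1, where the 3 remaining basal arrays gave 12.3 to 12.6, and 9.76 for Flna, against 11.7 to 11.8. For Lmna it gave 10.9, against 12.4 to 12.6, for Vim 13.4, against 13.9 to 14.0, and for Tnnt2 7.79, against 11.3 to 12.1.

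Day 1 9A1 replicate 2 gave 11.1 for Cnn3, where the other day 1 arrays gave 12.4 to 12.5. Day 5 9A1 replicate 1 gave 10.5 for Lima1, where the other day 5 arrays gave 10.7 to 10.8, a gap that is small in size. The causes were not tested.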

How the results depend on the processing

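The counts of members that fell or rose at day 5 against basal culture (19 and 3), and the 16 that fell between day 1 and day 5, stayed within 1.5 times under every alternative run; those of day 1 and within the lines did not, and the cause was not tested. The counts in this section have no share of all genes called beside them, and that share moves with the arrays kept. They describe the settings and are no result about the members. With no filter 1 member fell and 0 rose at day 1 (2 and 1 with all arrays and the filter), and 1 was negative in the difference between the steps (2). With a floor of 6, 2 fell at day 1 in 14B3 (0). With the mean of probe sets 2 rose at day 1, and 1 fell and 1 rose in 14B3. With quantile normalisation 3 rose at day 1, 1 of them in 14B3 alone as well, and the difference between the steps was negative for 1 and positive for 9 (2 and 5). With array weights 0 rose at day 1, 1 was negative and 2 positive, 7 fell and 3 rose at day 1 in 14B3, and between day 1 and day 5 1 fell in 9A1 (10) and 18 fell and 4 rose in 14B3 (5 and 2), where 4 also rose at day 5 against basal culture (2). With no variance trend 1 fell at day 1 and 1 was negative. Median centring moved no count by over 1.5 times.

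With the replicate number as a block (replicate block), 0 fell at day 1, 1 was negative and 3 positive, 1 rose at day 1 in 14B3, 3 fell between day 1 and day 5 in 14B3, and 6 fell at day 5 in 9A1 (11). The numbers are not known to pair the samples: same-numbered deviations correlated at -0.303, -0.192 and 0.376 in 9A1 and at -0.0969, -0.0715 and -0.0178 in 14B3.

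Leaving out basal 9A1 replicate 1 and day 1 9A1 replicate 2 together was chosen after seeing the data. It gave 8 falls and 5 rises at day 1, 4 rises between day 1 and day 5, and 4 negative and 12 positive differences between the steps. At day 1 there were 5 falls and 3 rises in 9A1 and 8 and 3 in 14B3. Between day 1 and day 5 there were 22 and 2 in 9A1 and 16 and 4 in 14B3, at day 5 against basal culture 23 and 3 in 9A1 and 4 rises in 14B3, and 1 lower and 1 higher member in basal 9A1 against basal 14B3.

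With any 1 array left out, the falls at day 1 ranged from 0 to 7 and the rises from 0 to 2. At day 5 against basal culture they ranged from 19 to 22 and from 2 to 3, and between day 1 and day 5 from 12 to 17 and from 2 to 3. The difference between the steps was negative for 1 to 3 and positive for 2 to 12. In 9A1, 0 to 4 fell and 0 to 1 rose at day 1, 2 to 15 and 1 to 2 between day 1 and day 5, and 4 to 18 and 1 to 2 at day 5 against basal culture. In 14B3 the ranges were 0 to 5 and 0 to 1, 0 to 11 and 0 to 3, and 5 to 19 and 2 to 2. For the responses of the lines, 0 to 2 were lower and 0 to 1 higher at day 1 and 0 to 0 lower and 0 to 3 higher at day 5, and 0 to 3 lower and 0 to 1 higher between the lines in basal culture. Depth does not apply to arrays. With 2 arrays per group, signal near the floor limits Cnn1, Myl9 and Tagln, and signal near the top of the scale limits Actb, Actg1 and Vim.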
